A study of Canis lupus familiaris with 4 samples.

Results

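The genes described here are those of the core Notch pathway: the receptors NOTCH1, NOTCH2 and NOTCH3, the ligands JAG1, JAG2 and DLL1, and the target genes HES1, HEY1, HEY2 and HEYL. They were chosen by symbol. Of these 10 genes, 7 had a row under their symbol in the expression table of 30951 genes, and HES1, HEY2 and HEYL were not analysed here. Of the 30951 rows 17896 carry a symbol, and rows without one could hold these genes. All 7 were detected, with reads in each of the 4 libraries, so none was lost to the filter on low values.

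The samples were cultures of mesenchymal stromal cells (MSCs) from canine adipose tissue, 1 primary cell line and 1 total RNA library from each of 4 dogs. MSCs are stromal progenitors that adhere to plastic and lay down matrix, and the series concerns the antimicrobial activity of the freeze-dried secretome of such cells. All cultures grew at 37°C and 5% CO2 in serum-containing DMEM (fetal bovine serum at 10%), to which penicillin, streptomycin and fungizone were added. They were held untreated in 24-well plates for 48 h. The labels give no genotype, breed or age and form 1 group, so there is no contrast between conditions, and the comparisons are between genes' levels and between dogs.

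Notch is a contact-dependent signalling pathway. A ligand of the Jagged or Delta-like family on 1 cell pulls on a receptor on its neighbour, and the receptor is then cut by ADAM proteases and by gamma-secretase. The freed intracellular domain enters the nucleus and joins the DNA-binding protein RBPJ and a Mastermind coactivator, and transcription of repressor genes of the HES and HEY families follows. In mesenchymal cells Notch is known for holding back differentiation, and NOTCH3 is best known from the mural cells of blood vessels, the smooth muscle cells and pericytes.

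Reads assigned to genes ranged from 7474011 (dog 4) to 22411268 (dog 1). The labelled cell type was checked against marker genes. Of 12 MSC markers 11 stood above the median of detected genes, COL3A1, COL1A1 and COL1A2 among them, and NT5E was below. The endothelial markers PECAM1, TIE1 and EMCN and the blood markers CD3E, MS4A1 and AIF1 had 0 reads in every dog. Of 14 endothelial markers 0 were above and 6 below, and VWF, KDR and ERG were among the neither, at -0.39 ± 1.29, -0.86 ± 0.11 and -1.20 ± 0.55. Of 4 measured epithelial markers 1 was detected, KRT18, which was neither. Of 9 measured blood markers, CD79A of B cells was above (5.31 ± 0.17), CSF1R neither (0.09 ± 0.78) and CD68 below (-2.79 ± 0.47), and 6 were not detected. Among 12 mural markers, 5 were above, TAGLN, ACTA2 and CSPG4 among them, 3 below, 3 neither and 1 not detected. RGS5 had 0 reads, and DES had 3 and 4 reads in dogs 3 and 4 and none in the others.

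All 3 receptor genes and the ligand gene JAG1 were above the median of detected genes in the 4 cultures, and the ligand gene DLL1 was below it. The level of a gene is its deposited log2 value minus the median of detected genes in the same library, where detected means reads in at least 2 of 4 libraries (17200 genes). By the level test 4 of the 7 genes with a row were above (NOTCH1, NOTCH2, NOTCH3 and JAG1), where 33.3% of all tested genes were. DLL1 alone was below, where 35.8% of all tested genes were, and JAG2 and HEY1 were neither, where 30.9% of all tested genes were. The test is limma's with a distance of 1 log2 unit and Benjamini-Hochberg adjustment over all tested genes. The median level of the 7 genes was 2.06, against -0.02 for all tested genes. Levels were not corrected for transcript length, and long transcripts such as those of the receptors collect more reads. The order of genes by level is therefore not read as an order of expression. The calls above and below the median carry the same limit.

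**Figure D1:**
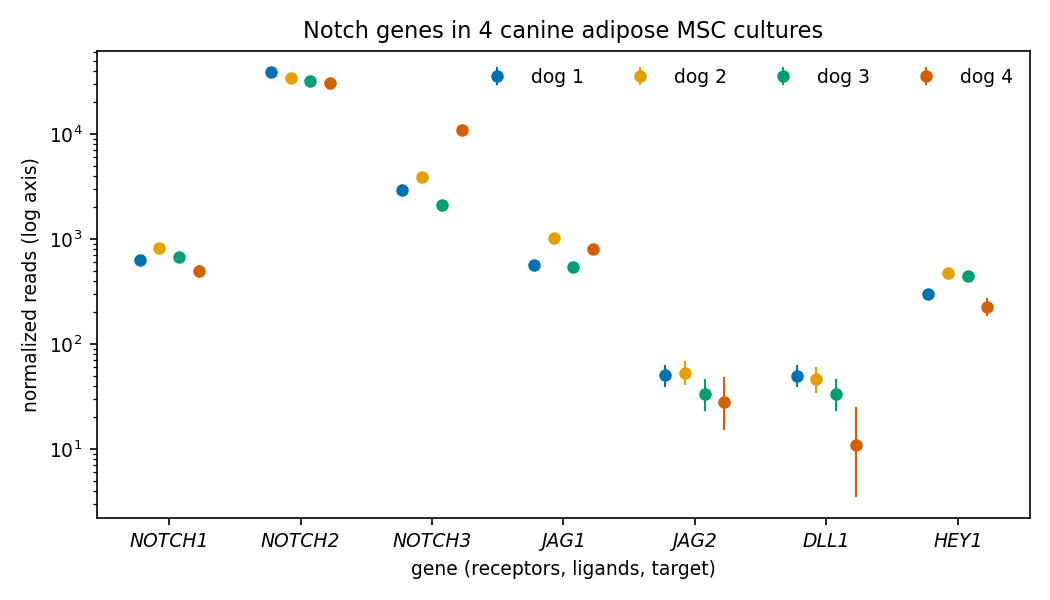
Normalized reads (reads divided by the library's size factor, log axis) of the 7 measured Notch genes in each of 4 dogs. Points are single libraries and bars are exact 95% Poisson intervals, which cover counting error only. NOTCH2 differs little between dogs, NOTCH3 is highest in dog 4 at 10830, and DLL1 is lowest in dog 4 at 10.8.

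Among the receptors, NOTCH2 had the smallest SD between dogs. NOTCH2 (ENSCAFG00000010476), a widely expressed receptor, had 38719, 34165, 32345 and 30964 normalized reads in dogs 1 to 4. The 4 dogs lay close together, with dog 1 highest and dog 4 lowest. The ratio of dog 1 to dog 4 was 1.25 (95% counting interval 1.23 to 1.27). Its level was 7.73 ± 0.14 (log2; the mean and SD over n = 4 dogs stand on either side of ± throughout), above the median in 4 of 4 dogs (limma, Benjamini-Hochberg adjusted p = 4.00e-09). The SD between dogs was below the 0.43 that the trend of the fit gives for genes of this level, and was 0.06 without dog 1. In the dog RefSeq annotation, on another genome build (UU_Cfam_GSD_1.0), the span of NOTCH2 overlaps 3 other loci. Reads of overlapping genes cannot be told apart here, because no source states whether the authors' counting used strand.

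NOTCH3 had the largest SD of the 7 genes with all 4 dogs in the fit; without dog 4 that was JAG1 (0.48). NOTCH3 (ENSCAFG00000016107) had 2909, 3889, 2133 and 10830 normalized reads in dogs 1 to 4. Dog 4 was the highest and dog 3 the lowest. Dog 4 exceeded dog 2, the next, by 2.78 times (95% counting interval 2.67 to 2.90), dog 1 by 3.72 times (3.57 to 3.88) and dog 3 by 5.08 times (4.83 to 5.34). Scaled by total reads in place of size factors, the ratio of dog 4 to dog 3 was 4.55. The level of NOTCH3 was 4.66 ± 1.02 and was above the median in 4 of 4 dogs (limma, Benjamini-Hochberg adjusted p = 2.05e-06). Without dog 4 it was 4.18 with an SD of 0.43. In RefSeq, lncRNA loci overlap the span of NOTCH3.

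NOTCH1 (ENSCAFG00000019633), the receptor best known from blood and vessel development, had 639, 819, 682 and 492 normalized reads in dogs 1 to 4. Dog 2 was the highest and dog 4 the lowest, and the ratio between them was 1.66 (95% counting interval 1.44 to 1.93). The level was 2.06 ± 0.28, above the median in 4 of 4 dogs (limma, Benjamini-Hochberg adjusted p = 3.04e-05), and its SD was 0.17 without dog 4. With the median taken over genes that have reads in all 4 dogs, the level was 1.24 and did not pass (adjusted p = 0.0796).

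The mix of receptor reads differed in dog 4. NOTCH3 gave 6.88%, 10.0%, 6.07% and 25.6% of the reads of the 3 receptors in dogs 1 to 4, and the 95% Wilson interval in dog 4 was 25.0% to 26.2%. NOTCH2 gave 91.6%, 87.9%, 92.0% and 73.2%. NOTCH1 gave 1.51%, 2.11%, 1.94% and 1.16%. Dog 4 lay outside the range of the others for each receptor, highest for NOTCH3 and lowest for NOTCH1 and NOTCH2. The shares within a dog depend on each other, so a higher share of NOTCH3 lowers the others. By contrast, the level of NOTCH1 minus that of NOTCH2 was -5.88, -5.35, -5.53 and -5.92 in dogs 1 to 4. The level of NOTCH3 minus that of NOTCH2 was -3.72, -3.13, -3.91 and -1.51 in dogs 1 to 4. These shares are of reads and depend on transcript lengths, so they compare dogs with each other and not receptors.

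**Figure D2:**
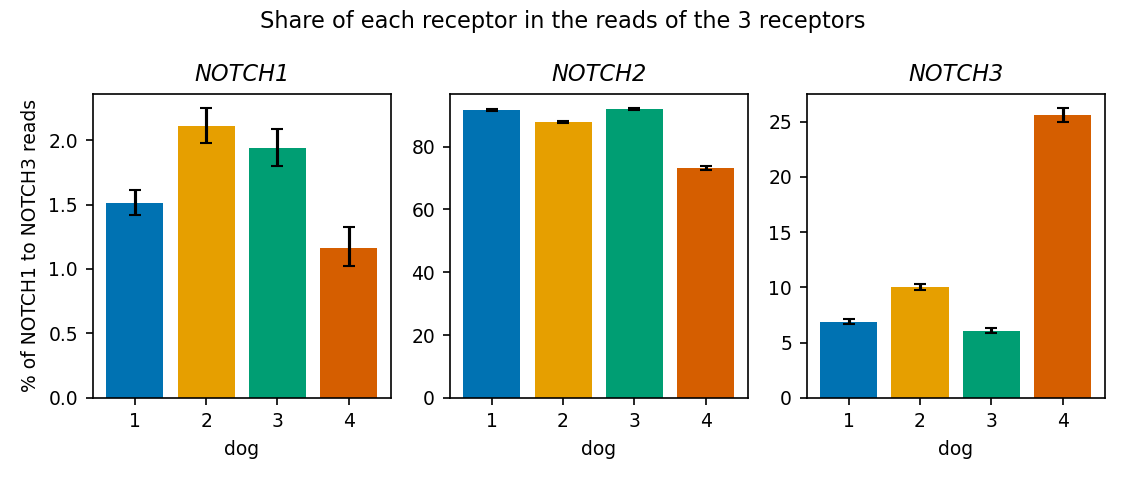
Percent of the reads of NOTCH1, NOTCH2 and NOTCH3 together that each receptor took, by dog. Bars are single libraries, error bars are 95% Wilson intervals (counting error only), and each panel has its own axis from 0. The NOTCH3 share in dog 4 is 25.6%, against 6.07% to 10.0% in the other dogs.

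The level of NOTCH3 in dog 4 stood beside other differences of that library. The summed level of the 12 mural markers was 4292, 3144, 2383 and 7755 reads per 1e6 assigned reads in dogs 1 to 4. Dog 4 was thus also the highest for this list. Such sums are weighted toward the most abundant genes of a list. The median level of the mural markers was 1.59, 0.03, 0.36 and 2.04 in dogs 1 to 4. The summed level of the 12 MSC markers was 128450, 128458, 131488 and 91963 reads per 1e6, lowest in dog 4. Their median level was 6.47, 6.02, 6.21 and 6.43 in dogs 1 to 4, so dog 4 was not the lowest by median. Of these 12 markers, 4 were highest in dog 4. The orders of NOTCH3 and of the mural markers differed below dog 4, with dog 2 second for NOTCH3 and dog 1 second for the mural markers. The pericyte marker RGS5 was at 0 in all dogs, and of the 11 mural markers tested, 8 were highest in dog 4. Among all tested genes, 36.8% were highest in dog 4, and this library was also the shallowest. The part of these differences in the NOTCH3 result was not tested. In bulk RNA, a larger number of cells of a type and more RNA per cell cannot be told apart.

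The spread between dogs was tested by dividing each gene's variance by the prior variance that limma fits for its level. NOTCH3 had an SD of 1.02 where the trend gave 0.26. The F test of its variance against this prior gave an unadjusted p of 0.00272 and a Benjamini-Hochberg adjusted p of 0.317. NOTCH3 therefore did not pass. None of the 7 genes passed, and neither did any of the 17200 tested genes (0.0%, smallest adjusted p = 0.0796). Without dogs 1 to 4 in turn, 0, 4, 1 and 15 of all tested genes passed, and none of the 7 Notch genes did. At an unadjusted p under 0.05, NOTCH3 was the only one of the 7 genes, and 5.2% of all tested genes had such a p. The median SD of the 7 genes was 0.41, against 0.36 for all tested genes.

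**Figure D3:**
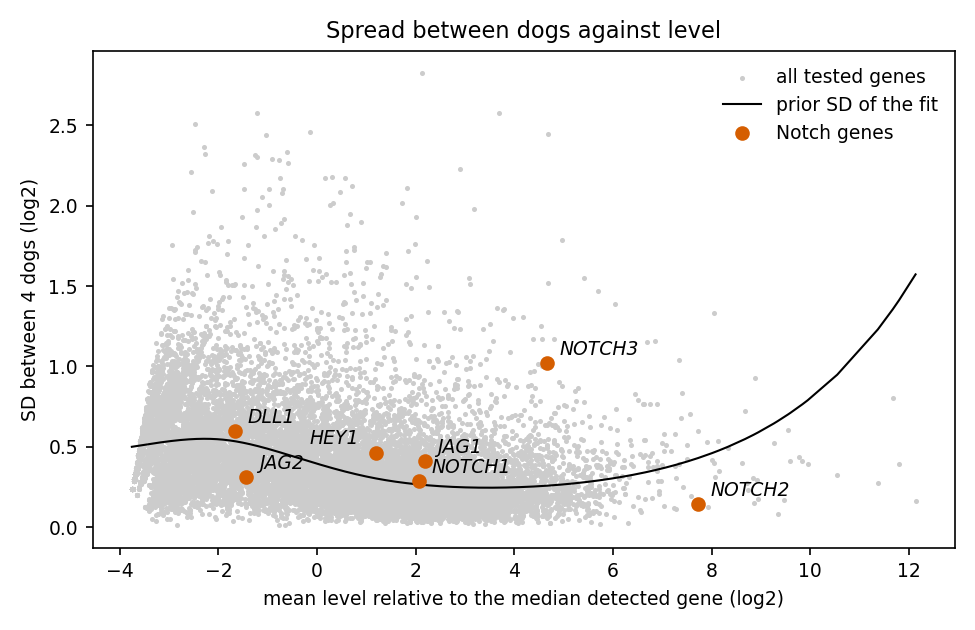
SD between the 4 dogs (log2) against mean level relative to the median detected gene (log2). Grey points are all 17200 tested genes, the line is the prior SD of the limma fit, and orange points are the 7 Notch genes. NOTCH3 lies above the line, at an SD of 1.02, and NOTCH2 below it, at 0.14.

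The genes whose pattern over the 4 dogs was most like that of NOTCH3 were OPN1SW, OR10V4 and LGALS9. Likeness was the Euclidean distance between values centred on each gene's mean, over 4 libraries and 11466 other genes with at least 10 reads in every dog. The distances were 0.22, 0.22 and 0.23 log2 units, and 524 genes lay within 1 unit. These 3 genes had few reads, with 18 to 59 for OPN1SW, 11 to 61 for OR10V4 and 27 to 86 for LGALS9 in a library, so counting error weighs on their distances. LGALS9, a galectin gene, had levels of -1.60, -0.89, -1.87 and 0.38 in dogs 1 to 4.

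Of the ligand genes, JAG1 was above the median and the other 2 had at most 70 reads in any library. JAG1 (ENSCAFG00000005627), a transmembrane ligand of all the receptors named here, had 570, 1013, 543 and 798 normalized reads in dogs 1 to 4. Dogs 2 and 4 were higher than dogs 1 and 3. Dog 2 exceeded dog 3 by 1.87 times (95% counting interval 1.68 to 2.07). The level was 2.19 ± 0.41, above the median in 4 of 4 dogs (limma, Benjamini-Hochberg adjusted p = 4.21e-05). Dogs 1 and 3 changed places when reads were scaled by library totals, at 35.4 and 37.4 reads per 1e6.

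JAG2 (ENSCAFG00000018401), the second Jagged ligand, had 70, 58, 35 and 13 reads in dogs 1 to 4, or 50.3, 53.5, 33.4 and 28.2 normalized reads. Dogs 1 and 2 were higher than dogs 3 and 4, and the ratio of dog 2 to dog 4 had a wide counting interval, at 1.90 (95% interval 1.03 to 3.78). The level was -1.44 ± 0.31, lower than the median gene in 4 of 4 dogs, and did not pass the test (limma, Benjamini-Hochberg adjusted p = 0.0656). JAG2 passed as below under 6 of the alternative settings, among them thinned libraries (-1.57, adjusted p = 0.0373). Against the median of all genes in the table, undetected ones included, it was above (1.96).

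DLL1 (ENSCAFG00000004094), a Delta-like ligand, had 69, 50, 35 and 5 reads in dogs 1 to 4, or 49.6, 46.1, 33.4 and 10.8 normalized reads. Dog 4 was the lowest, and its 95% counting interval (3.52 to 25.3) overlapped that of dog 3 (23.3 to 46.5), which in turn overlapped those of dogs 1 and 2. Overlap of such intervals is not a test of a difference, and the ratio of dog 3 to dog 4 was not computed. The ratio of dog 1 to dog 4 was 4.57 (95% counting interval 1.87 to 14.5), which rests on the 5 reads of dog 4. The level was -1.67 ± 0.60, below the median in 4 of 4 dogs (limma, Benjamini-Hochberg adjusted p = 0.029), and its SD was 0.22 without dog 4. DLL1 lost this call without dog 3 (-1.68, adjusted p = 0.0584) or without dog 4 (-1.38, adjusted p = 0.0873), and against the median of all genes in the table it was above (1.73).

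JAG1 gave 85.1%, 91.0%, 89.0% and 95.3% of the reads of the 3 ligands in dogs 1 to 4. The share of DLL1 was 7.40%, 4.15%, 5.48% and 1.30%, and in dog 4 its 95% Wilson interval was 0.55% to 3.00%. Dog 4 had the highest JAG1 share and the lowest shares of both other ligands. For JAG2 the share in dog 4 was 3.37%, from 13 reads. Its 95% Wilson interval (1.98% to 5.68%) overlapped those of dog 2 (3.74% to 6.17%) and dog 3 (3.96% to 7.52%), which is not a test of a difference. The shares within a dog depend on each other.

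HEY1 (ENSCAFG00000008391), a basic helix-loop-helix repressor that Notch activates directly in many tissues, was the only target gene of the 4 with a row under its symbol. It had 302, 472, 449 and 226 normalized reads in dogs 1 to 4. Dogs 2 and 3 were higher than dogs 1 and 4. Dog 2 exceeded dog 4 by 2.09 times (95% counting interval 1.69 to 2.61) and dog 3 by 1.05 times (0.93 to 1.20), an interval that includes 1. The level was 1.20 ± 0.46, higher than the median gene in 4 of 4 dogs, and did not pass the test of more than 1 log2 unit (limma, Benjamini-Hochberg adjusted p = 0.201). Without dog 4 it was 1.39 and passed (adjusted p = 0.0211).

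HEY1 and NOTCH3 did not share an order. Dog 4 had the highest NOTCH3 and the lowest HEY1, and the level of HEY1 minus that of NOTCH3 was -3.19, -2.99, -2.20 and -5.46 in dogs 1 to 4. HEY1 was lowest in the same dog as NOTCH1, NOTCH2, JAG2 and DLL1, so 5 of the 7 genes were lowest in dog 4. Over all tested genes, 28.8% were lowest in dog 4. With 4 dogs no correlation across samples was computed.

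The rest of the pathway was taken from lists of 95 other genes by role, of which 89 had a row and 79 were detected. By the same test 52 of the 79 detected genes were above, 14 were below and 13 neither, beside 33.3%, 35.8% and 30.9% of all tested genes. The other 10 were not detected and not tested. The median level of the 79 was 2.11. The machinery that processes receptors and carries the signal was mostly above the median, and most other receptors and ligands were near the floor. These calls carry the limit of transcript length given above. With the median over genes with reads in all 4 dogs, 39 were above.

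**Figure D4:**
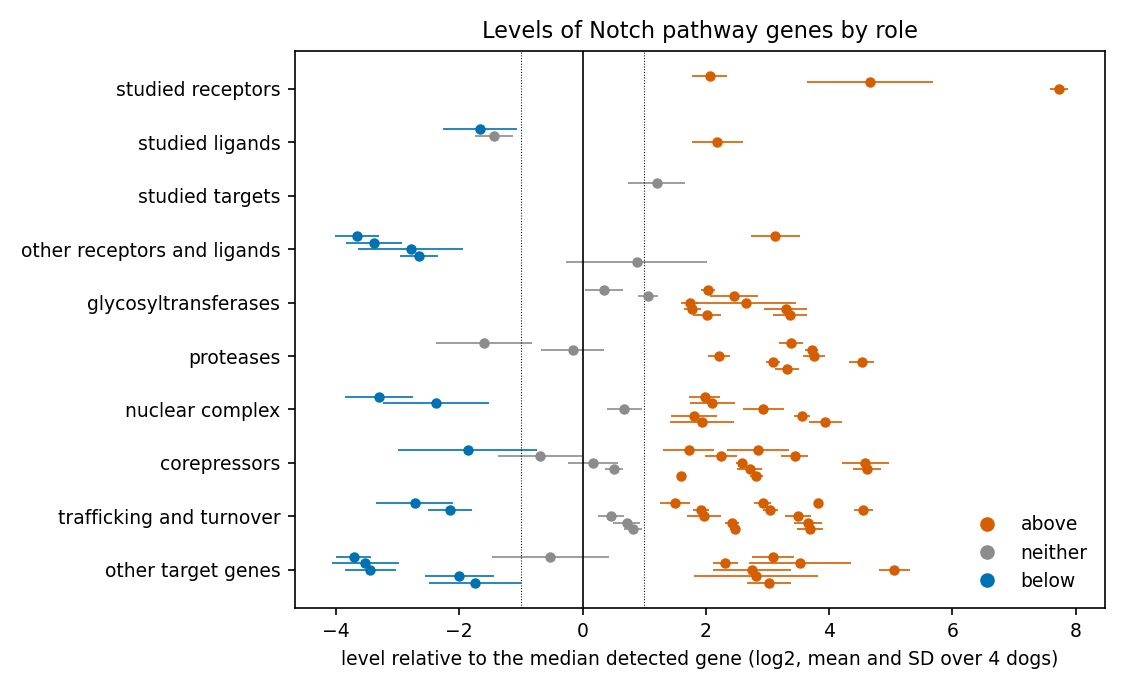
Levels relative to the median detected gene (log2) of detected Notch pathway genes by role. Points are means and bars SDs over 4 dogs, dotted lines mark the distance of 1 log2 unit, and colours give the call of the level test. Of the 9 proteases 7 are above, and of the 6 detected other receptors and ligands 4 are below.

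Of the 6 other receptor and ligand genes tested, 1 was above the median (33.3% of all tested genes were), 4 below (35.8%) and 1 neither, and 4 more were not detected. The endothelial ligand DLL4 and the contactins CNTN1 and CNTN6, described as non-classical ligands, had 0 reads in all 4 dogs. Over the 61335851 reads of all libraries pooled this allows up to 0.0489 reads per 1e6, a limit set at 3 reads that covers counting error only. In single libraries the same limit was 0.134, 0.185, 0.197 and 0.401 reads per 1e6 in dogs 1 to 4. The receptor NOTCH4, known from endothelium, had 1, 12, 2 and 14 reads in dogs 1 to 4 and was below at -2.79 ± 0.85. Its locus overlaps another gene in RefSeq. DLK1, a non-classical ligand that marks preadipocytes, had 2, 0, 0 and 1 reads and was below at -3.66 ± 0.36, and DNER was below at -3.39 ± 0.45.

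EGFL7, a secreted endothelial factor, was below as well, at -2.65 ± 0.31. The microfibril protein MFAP5, which can bind Notch and Jagged proteins, was the gene above, at 3.13 ± 0.39. Its relative MFAP2 was neither, at 0.88 ± 1.14, with 121, 152, 372 and 763 normalized reads. MFAP2 was highest in dog 4, followed by dog 3, with dogs 1 and 2 lower.

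Enzymes that glycosylate the receptors' EGF repeats in the secretory pathway were above the median in 8 of 10 tested genes, with none below, where 33.3% and 35.8% of all tested genes were. POGLUT3 (3.36 ± 0.28), the Fringe gene RFNG (3.29 ± 0.35) and POGLUT2 (2.66 ± 0.81) were among those above. LFNG (0.35 ± 0.31) and XXYLT1 (1.06 ± 0.16) were neither. LFNG encodes a Fringe enzyme that shifts receptors toward Delta-like ligands. The other Fringe gene, MFNG, had 2 reads in dog 2 and 0 elsewhere. POGLUT2 had 798, 762, 678 and 2292 normalized reads in dogs 1 to 4, with dogs 1 to 3 close together and dog 4 above them.

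Of the 9 protease genes 7 were above the median and none below, where 33.3% and 35.8% of all tested genes were. Furin (FURIN, 4.53 ± 0.20), which cuts the receptor in the Golgi, the gamma-secretase subunit NCSTN (3.76 ± 0.18) and the sheddase ADAM17 (3.72 ± 0.10) were among those above. ADAM10, the main ligand-dependent sheddase, stood at 3.09 ± 0.12. The gamma-secretase subunit genes PSEN2 (-1.60 ± 0.78) and APH1B (-0.16 ± 0.51) were neither, but PSEN2 was below without dog 3 (-1.87).

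In the nuclear complex, 7 of 10 genes were above the median (33.3% of all tested genes were), 2 below (35.8%) and 1 neither. The acetyltransferases EP300 (3.93 ± 0.27) and CREBBP (3.56 ± 0.13) and the DNA-binding partner RBPJ (2.93 ± 0.33) were among those above. RBPJ had 1234, 1254, 882 and 1525 normalized reads in dogs 1 to 4, so it varied by less than 2 times between dogs. The coactivators MAML1 and MAML2 were above at 2.11 ± 0.37 and 1.94 ± 0.52, and MAML3 was below at -2.38 ± 0.86. RBPJL, a paralog of RBPJ known from exocrine pancreas, was below at -3.31 ± 0.55.

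Of 14 tested corepressor genes, 10 were above the median (33.3% of all tested genes were), 1 below (35.8%) and 3 neither. NCOR1 (4.62 ± 0.22) and the deacetylase HDAC2 (3.45 ± 0.22) were among those above. TLE2, a Groucho-type corepressor of HES proteins, was below at -1.86 ± 1.12, and lost this call without dog 1 (-1.63), 2 (-1.74) or 3 (-1.67). KYAT3, an aminotransferase gene in this list that is not a corepressor, was at -0.69 ± 0.68. Of 17 tested genes of trafficking and turnover, 12 were above, 2 below and 3 neither, and 1 more was not detected. SEL1L (4.55 ± 0.15), the ligand-activating ubiquitin ligase MIB1 (3.82 ± 0.06) and NEDD4 (3.69 ± 0.21) were among those above. The Neuralized genes, which encode the other family of ligases that act on ligands, were below or not detected, with NEURL3 at -2.72 ± 0.62, NEURL1B at -2.15 ± 0.35 and NEURL1 at 0 reads in every dog.

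Genes reported as Notch targets in some cell type were divided, with 7 of 13 tested above the median (33.3% of all tested genes were), 5 below (35.8%) and 1 neither, and 4 more not detected. Those above included the repressor BHLHE40 at 5.05 ± 0.25, the cell cycle inhibitor CDKN1A at 3.54 ± 0.83 and NFKB2 at 3.09 ± 0.34. The feedback inhibitor NRARP had 0, 2, 0 and 3 reads in dogs 1 to 4 and was below at -3.52 ± 0.54, and HES5 had 1, 3, 0 and 2 reads. HES2, HES4, HES7 and the T-cell target PTCRA had 0 reads in all dogs, and IL7R was below at -3.71 ± 0.28.

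None of these 79 detected pathway genes passed the variability test either (smallest adjusted p = 0.309 in the F test against limma's prior variance). At an unadjusted p under 0.05 there were 5 of them (6.33%, near the 5.2% of all tested genes): MFAP2, POGLUT2, CDKN1A, CCND1 and SNAI2. The cyclin gene CCND1 had 1139, 532, 856 and 2830 normalized reads in dogs 1 to 4. It was highest in dog 4, as were MFAP2 and POGLUT2, whereas CDKN1A was highest in dog 1 and SNAI2, a mesenchymal transcription factor, in dog 2.

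**Figure D5:**
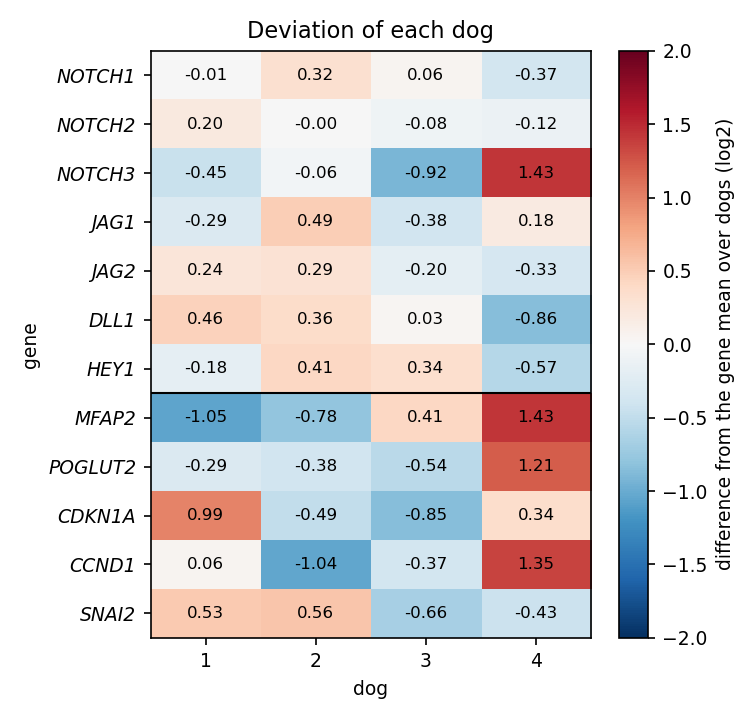
Difference of each dog's level from the gene's mean over the 4 dogs (log2), for the 7 Notch genes (upper block) and the 5 other pathway genes with an unadjusted variability p under 0.05 (lower block, chosen after their values were seen). In dog 4, NOTCH3 is at 1.43, whereas HEY1 is at -0.57 and DLL1 at -0.86.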

How the data were processed

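RNA-seq of total RNA covered 4 cultures of canine adipose MSCs, which the library names assign to separate dogs. Per the labels' protocols, a stranded kit with ribosomal RNA depletion was used on 10 ng of RNA. The submitters' processing notes name STAR 2.7.11a, Trimmomatic 0.39, FastQC 0.12.1, DESeq2 and the build CanFam3.1. Which counter, strand setting and annotation release were used is not given in the sources used here. The deposited values are log2 values that the authors made with the variance-stabilizing transformation, per the file headers.

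The transformation was inverted from its lowest value (3.37), that of 0 reads, and gave whole reads for 100% of values within 0.01 reads. Size factors were 1.39, 1.08, 1.05 and 0.461 for dogs 1 to 4. Tests ran on the deposited values in R 4.3.3 with limma 3.58.1, as a fit of the intercept with a trended prior, a distance of 1 and an adjusted threshold of 0.05. The level test was checked on simulated data, and the variability test was not checked there at an SD like that of NOTCH3. Counting intervals are at 95% (scipy 1.17.1) and cover counting error only. With 1 culture and 1 library per dog, the spread between dogs includes that between cultures and libraries. The planned comparison between members per coding length was not run, since lengths were not used here.

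The members and gene lists were chosen with earlier results of these data known. The rule for named genes took all members, the 3 highest and 2 lowest detected genes of each role list, genes at 0 reads, genes for which 1 dog stood apart, the 3 highest markers of each cell type list and the 3 genes most like the most variable member. NOTCH4, ADAM10, MAML1, MAML2, HES5, MFNG, CCND1, SNAI2, NDUFA4L2, NT5E, CD79A, DES and KRT18 were added after their values were seen. Markers at 0 reads were named as well. Some genes of the lists are counted but not reported here by name.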

Additional observations from a re-analysis of the deposited data

Results flagged for a closer look

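In 4 of the 86 detected genes of the pathway, 1 dog stood apart from the others, its gap to the nearest dog divided by the range exceeding Dixon's 95% critical value for 4 samples. For normally distributed values, chance gives this for about 1 in 20 genes, near the share found here. The 4 genes are therefore not read as a result about the pathway. The share over all tested genes was not computed. None of the 7 Notch genes stood apart in this way. POGLUT2 had a level of 3.86 in dog 4, against 2.11 to 2.37 in the other dogs. TLE2 had a level of -0.19 in dog 4, with 14, 18, 13 and 55 reads in dogs 1 to 4. L3MBTL3 had a level of 0.29 in dog 4, against 0.56 to 0.61. NUMB, an inhibitor of Notch receptors, had a level of 2.72 in dog 3, against 2.97 to 3.01.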

How the results depend on the processing

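No paired analysis was possible because the labels form 1 group. NOTCH2, NOTCH3 and JAG1 stayed above the median in all 14 alternatives, and no Notch gene passed the variability test in any of the 11 run for it. Of the 7 genes, 4 were above. With the median over genes with reads in all 4 dogs this count was 3, and over all genes of the table it was 7. It was 4 to 5 without each dog, and 5 with a distance of 0.5, when HEY1 was added. The count below was 1; it was 2 with the median over genes with reads in all 4 dogs, a distance of 0.5, log2 of normalized reads plus 1, a prior without a trend, thinned libraries or summed rows, when JAG2 joined DLL1. It was 0 with the median over all genes or with every gene tested, and 0 to 1 without each dog. With the median over all genes JAG2 (1.96) and DLL1 (1.73) turned to above. The wider pathway had 52 above. That count was 39 with the median over genes with reads in all 4 dogs, 66 with the median over all genes, and 52 without each dog. The wider pathway had 14 below, and 0 with the median over all genes. The count below was 8 with tests of genes read in all dogs only, 22 when every gene was tested, and 12 to 14 without each dog. Among all tested genes, 5723 were above and 6163 below; with the median over genes with reads in all dogs 3729 were above, with the median over all genes 11406 above and 0 below. With only genes read in all dogs tested 2830 were below, and with every gene tested 19520. The cause was not tested where neither the reference nor the genes tested changed. Values per coding length were not run. Depth limits DLL1, JAG2 and the genes at a few reads.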

Other observations

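Dog 4 also stood out for 2 marker genes of other cell types. The keratin gene KRT18 had 9, 9, 25 and 435 reads in dogs 1 to 4, while the epithelial genes EPCAM, CDH1 and KRT14 had no reads in dog 4. NDUFA4L2, a hypoxia-induced gene that also marks pericytes, had 756, 181, 299 and 3151 normalized reads in dogs 1 to 4. Its level of 1.98 ± 1.76 did not pass the test, but was above without dog 2 (2.53) or dog 3 (2.31).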
